A study of Mus musculus with 6 samples.

Results

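The genes described here rebuild triglyceride from absorbed fat in enterocytes and take it apart again at the lipid droplet: 5 acyltransferases (Mogat2, Dgat1, Dgat2, Gpat3 and Agpat2), 3 droplet proteins (Plin2, Plin3 and Cideb) and 2 lipases (Pnpla2 and Mgll). They were chosen by name for their place in the pathway, and each was read from the brightest transcript cluster, the unit of probes that the array summarises, among those annotated with exactly 1 gene symbol. Of the 10 listed genes, 9 were measured in this way, out of 22180 genes on the array. The 10th, Cideb, had 1 cluster, and because that cluster is shared with Nop9 no value is given for it.

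Total RNA came from the whole jejunum of 6 adult mice on a C57BL/6 background, kept on a high-fat diet (HFD) over 12 weeks, with 1 array per mouse. The 3 mutants were 12.4KbVilCre/Hnf4a loxP/loxP mice, called HNF4AΔIEC, in which Cre under the villin promoter deletes Hnf4a from intestinal epithelial cells. The 3 controls were on the same diet and came from the same breeding, but the sources used here give neither their exact alleles nor the sex of each mouse. Villin-Cre does not act in muscle, stroma or blood cells, all of which a whole jejunum holds, and in such bulk RNA fewer cells of a type and less RNA per cell cannot be told apart.

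An enterocyte receives dietary fat mainly as fatty acids and 2-monoacylglycerol. In the monoacylglycerol route, MOGAT2 adds a fatty acid to monoacylglycerol, and DGAT1 or DGAT2 adds the last one to make triglyceride. In the glycerol 3-phosphate route, which starts from a sugar-derived backbone, GPAT and AGPAT enzymes and a lipin phosphatase lead to the same diacylglycerol. Triglyceride that is not loaded onto chylomicrons is kept in cytosolic droplets coated by perilipins, and lipases release it again: PNPLA2 (adipose triglyceride lipase) takes the first fatty acid, hormone-sensitive lipase the next, and MGLL cleaves the remaining monoacylglycerol.

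Hnf4a itself was read first, as a check of the labels. Its log2 values were 9.49, 9.25 and 9.11 in mutants, against 10.74, 10.60 and 10.57 in controls. Every mutant was below every control, and the mutant mean was 2.56-fold lower (-1.35 on the log2 scale, SE 0.13). The limma adjusted p was 0.111 over all 41345 clusters and 0.00743 in a second fit over the 23521 clusters with 1 gene symbol, so the call at an adjusted p under 0.1 was made only in the second fit. How the probes of this cluster lie relative to the deleted part of the gene was not examined.

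Arrays correlated at 0.981 to 0.988 within groups and at 0.977 to 0.986 between them. The enterocyte markers, 12 of 12 measured, averaged 12.46 to 12.58 in mutants and 12.41 to 12.53 in controls, so the ranges overlapped, and all 12 were above background in both groups. The 10 measured adipocyte markers averaged 5.53 to 5.56 in mutants and 5.55 to 5.63 in controls, and 4 of the 10 (Adipoq, Lep, Nrip3 and Adig) were below background in both groups, where background is the log2 value of 5.43 under which 95% of olfactory receptor genes lay in the controls. Of the other adipocyte markers, Fabp4 averaged 7.74 in mutants and 7.60 in controls, and Aoc3 averaged 7.06 in mutants and 7.07 in controls. Thrsp averaged 5.83 in mutants and 5.62 in controls, Retn 5.57 and 5.53, and Acvr1c 5.91 and 6.17. The brighter cluster of Car3 did not overlap between groups, as for 14.3% of all genes. It averaged 5.27 in mutants, below background, and 5.84 in controls (limma unadjusted p 0.0404, adjusted p 0.680 over all clusters). A dimmer Car3 cluster, below background in both groups, differed by -0.0095. The mean of the 8 goblet cell markers was 11.52 to 11.60 in mutants and 11.00 to 11.37 in controls, and that of the 12 hepatocyte markers was 5.64 to 6.20 in mutants and 6.73 to 7.88 in controls, so these lists did not overlap between groups. Macrophage markers averaged 7.46 to 7.70 in mutants and 7.07 to 7.55 in controls, smooth muscle markers 9.05 to 9.34 in mutants and 9.20 to 9.78 in controls, and lymphatic markers 6.91 to 6.95 in mutants and 6.81 to 7.0 in controls. Whether what lies behind these marker means, cell number or RNA per cell, had a part in any value below was not tested.

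None of the 9 measured members differed between mutants and controls beyond the spread between mice. In the limma fit over all clusters, which called 0.0121% of them, 0 of 9 members were called, with adjusted p-values of 0.834 to 0.995. In the fit over clusters with 1 gene symbol, which called 0.472%, 0 of 9 were called as well, the smallest adjusted p being 0.744. At an unadjusted p under 0.05, which 6.53% of all genes reached, there were also 0 members. The 3 mutant values and the 3 control values of a gene stood apart without overlap for 14.3% of all genes, and for 0 of the 9 members. All 9 members were above background in both groups.

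**Figure D1:**
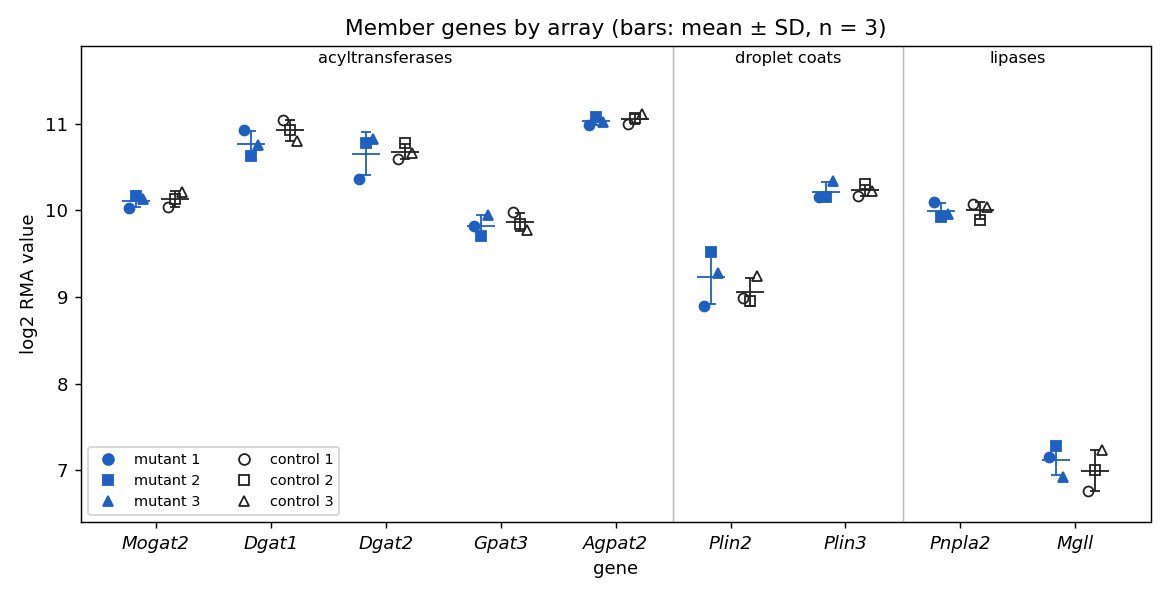
Log2 RMA values of the 9 measured members (y axis) by gene (x axis), with filled blue symbols for the 3 mutant arrays, open black symbols for the 3 control arrays, and horizontal bars with error bars for the mean ± SD of each group. The mutant and control values overlap for every gene, the spread is widest for Plin2 (0.62 over 6 arrays) and narrowest for Agpat2 (0.12), and heights are not comparable between genes because each has its own probes.

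Among the acyltransferases, Mogat2 encodes the enzyme that commits absorbed monoacylglycerol to triglyceride. Its log2 values were 10.03, 10.16 and 10.13 in mutants and 10.04, 10.14 and 10.22 in controls. The 2 groups covered nearly the same span. The difference was -0.024 (SE 0.097, 95% interval -0.25 to 0.21), which as a ratio of mutant to control runs from 0.838 to 1.15.

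Dgat1 encodes the enzyme of the last step that faces the bulk of dietary fat in the mouse intestine. It measured 10.93, 10.63 and 10.75 in mutants and 11.05, 10.93 and 10.81 in controls. Mutant 1 lay within the control values, while mutants 2 and 3 were below all of them. The difference of -0.16 (SE 0.12, 95% interval -0.44 to 0.13) was the farthest below 0 among the members, and its limma adjusted p was 0.834 over all clusters and 0.744 over those with 1 symbol. The interval allows a ratio of mutant to control between 0.736 and 1.09.

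Dgat2 encodes an enzyme of the same last step that is unrelated to DGAT1 in sequence. Its gene neighbours Mogat2 on mouse chromosome 7 in the RefSeq annotation, and MOGAT2 and DGAT2 belong to the same protein family. The log2 values were 10.37, 10.78 and 10.83 in mutants and 10.60, 10.77 and 10.66 in controls. Mutant 1 was the lowest of the 6 arrays and mutants 2 and 3 the highest, so the groups overlapped entirely. The difference was -0.022 (SE 0.14, 95% interval -0.37 to 0.32), and it was 0.12 without mutant 1.

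Gpat3 and Agpat2 act in sequence at the start of the glycerol 3-phosphate route, GPAT3 making lysophosphatidic acid and AGPAT2 phosphatidic acid. Gpat3 measured 9.82, 9.71 and 9.95 in mutants against 9.98, 9.84 and 9.77 in controls, a difference of -0.040 (SE 0.11, 95% interval -0.30 to 0.22). A second, dimmer cluster of Gpat3 gave -0.048 (SE 0.25). Agpat2 was the member with the narrowest spread, at 10.99, 11.08 and 11.02 in mutants and 10.99, 11.07 and 11.11 in controls. Its difference of -0.027 (SE 0.090) had a 95% interval of -0.24 to 0.19, or a ratio of mutant to control between 0.846 and 1.14. For both genes the mutant and control values overlapped.

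Taking the acyltransferases as a group, all 5 differences were below 0 (median -0.027). Over all genes 52.7% of differences were above 0, and over genes above background 47.3%. A repeated quantile normalization turned Mogat2 and Gpat3 above 0, and array weights turned Dgat2 above 0. The median SE of these 5 differences was 0.11, above the size of 4 of them.

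Among the droplet coats, Plin2 encodes the perilipin that is stable mainly when bound to a droplet and is widely used as a mark of stored lipid. It measured 8.90, 9.52 and 9.27 in mutants and 8.99, 8.95 and 9.25 in controls. The mutants held both the lowest and the highest of the 6 values. The difference of 0.17 (SE 0.18, 95% interval -0.25 to 0.59) was the farthest above 0 among the members and had the widest interval, with a limma adjusted p of 0.883 over all clusters. As a ratio it was 1.12, with bounds of 0.841 and 1.5, and leaving out single arrays gave differences of 0.024 (without mutant 2) to 0.33 (without mutant 1).

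Plin3 encodes a perilipin that is cytosolic until it moves onto newly made droplets. Its values were 10.15, 10.16 and 10.34 in mutants and 10.17, 10.30 and 10.22 in controls. The lowest and the highest array were both mutants here too. The difference was -0.0135 (SE 0.10, 95% interval -0.25 to 0.23).

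Of the lipases, Pnpla2 had log2 values of 10.10, 9.92 and 9.96 in mutants and 10.07, 9.89 and 10.04 in controls. The difference was -0.0045 (SE 0.10, 95% interval -0.25 to 0.24), and no member had a difference nearer to 0. Mgll, whose product also degrades the endocannabinoid 2-arachidonoylglycerol, measured 7.16, 7.28 and 6.93 in mutants and 6.76, 7.0 and 7.23 in controls. The groups overlapped. Its difference was 0.13 (SE 0.16, 95% interval -0.25 to 0.50), with a limma adjusted p of 0.902 over all clusters, and it was 0.0054 without control 1, 0.045 without mutant 2, 0.22 without mutant 3 and 0.24 without control 3.

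**Figure D2:**
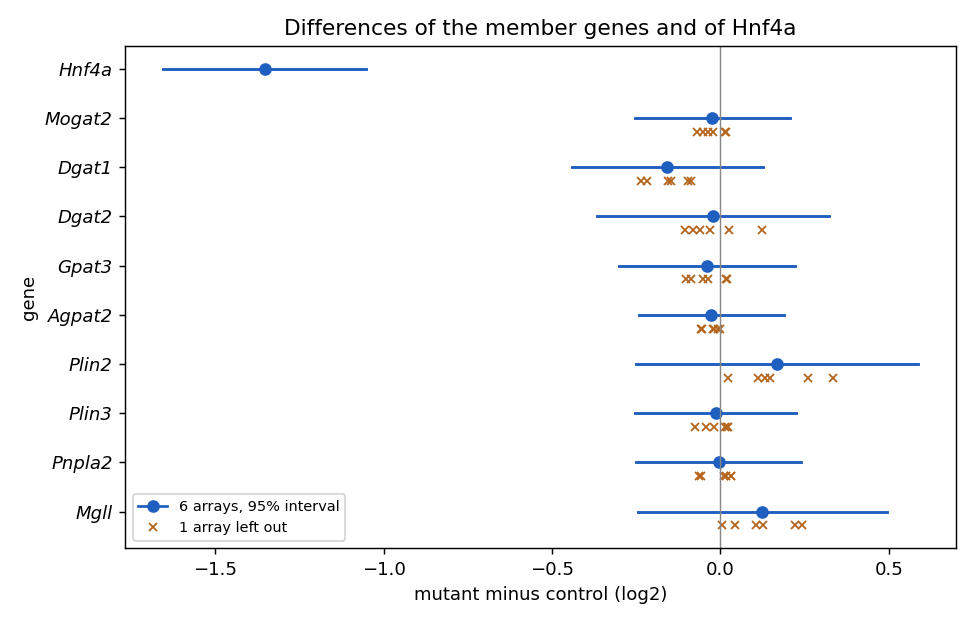
Mutant minus control differences on the log2 scale (x axis) for Hnf4a and the 9 members (y axis), as the estimate over 6 arrays with its 95% interval (blue) and, for the members, the 6 estimates with 1 array left out (brown crosses). Every member's interval crosses 0, from a lowest bound of -0.44 (Dgat1) to a highest of 0.59 (Plin2), while that of Hnf4a lies between -1.65 and -1.05.

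Over the 9 measured members the median difference was -0.022, beside 0.010 over all genes and -0.0087 over genes above background. The median size of the difference regardless of sign was 0.027, beside 0.0966 over all genes and 0.0911 over genes above background. The signs were 2 above 0 and 7 below, where 52.7% of all genes and 47.3% of genes above background were above 0. Of the 7 below, 4 (Mogat2, Gpat3, Plin3 and Pnpla2) turned above 0 when the arrays were quantile normalized again. The 95% intervals of all members lay between -0.44 and 0.59, and each interval included 0. Mutant 1 had the lowest value of the 6 arrays for 5 of the 9 members (Mogat2, Dgat2, Agpat2, Plin2 and Plin3). It stood clear of the next array for Dgat2, at 10.37 beside 10.60 in control 1. For the rest the next array was close: 10.034 and 10.044 (control 1) for Mogat2, and 10.989 and 10.994 (control 1) for Agpat2. For Plin2 these were 8.90 and 8.95 (control 2), and for Plin3 10.15 and 10.16 (mutant 2). The mean deviation of the members from their means was -0.056 in mutant 1 and between -0.033 and 0.039 on the other arrays.

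The balance between alternative enzymes was read within each array, as the difference of the log2 values of 2 members. Its height depends on the probes, so only its change between groups is of use. Dgat1 over Dgat2 gave 0.56, -0.15 and -0.072 in mutants against 0.45, 0.16 and 0.15 in controls, and mutant 1 was the highest of the 6 arrays while the other mutants were the lowest. The change of -0.14 had an exact permutation p of 0.6, where 0.1 is the smallest a design of 3 against 3 allows, and it was -0.36 without mutant 1 and -0.0046 without mutant 2. The change was 0.015 for Mogat2 over Gpat3 (exact permutation p of 0.9), 0.18 for Plin2 over Plin3 (exact permutation p of 0.5, and 0.0089 without mutant 2 to 0.31 without mutant 1) and -0.13 for Pnpla2 over Mgll (exact permutation p of 0.6). In all 4 ratios the mutant and control values overlapped.

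The rest of the pathway was taken from a list of 48 further genes, of which 44 were measured. The limma fits called 0 of the 44, over all clusters or over clusters with 1 gene symbol. At an unadjusted p under 0.05 there were 5 of 44 (11.4%, beside 6.53% of all genes), 3 higher and 2 lower in mutants. The values did not overlap between groups for 9 of 44 (20.5%, beside 14.3% of all genes), 6 higher in mutants (Agpat1, Bscl2, Hsd17b11, Pnpla3, Lipa and Ces2a) and 3 lower (Gpd1l, Abhd12 and Aadac).

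In the supply of glycerol 3-phosphate, Gpd1l, a cytosolic glycerol 3-phosphate dehydrogenase, measured 7.52, 7.57 and 7.47 in mutants and 7.80, 7.86 and 7.92 in controls. The groups did not overlap and the spread within each was small. The difference of -0.34 (SE 0.091, unadjusted p 0.00759) had a limma adjusted p of 0.540 over all clusters and 0.277 over those with 1 symbol. Its paralog Gpd1 differed by -0.11 (95% interval -0.33 to 0.10) on the brighter cluster and by -0.41 (95% interval -0.76 to -0.06) on a dimmer one, where the groups did not overlap and the limma adjusted p over all clusters was 0.647.

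Among the other 10 acyltransferases, Mogat1, Gpat2, Dgat2l6 and Awat2 were below background in both groups, so the monoacylglycerol and diacylglycerol paralogs of Mogat2 and Dgat2 were not measured above it. The mitochondrial Gpam differed by 0.027 (95% interval -0.19 to 0.24). Gpat4, the partner of Gpat3 in the endoplasmic reticulum, had the smallest unadjusted p of the group (0.193), at a difference of -0.14 (95% interval -0.37 to 0.09). Agpat1 did not overlap between groups, at 9.04, 8.96 and 8.96 in mutants and 8.92, 8.87 and 8.95 in controls, but differed by only 0.074 (SE 0.088).

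The lipins, which turn phosphatidic acid into diacylglycerol, had no common direction. Lpin1 differed by 0.23 (95% interval -0.14 to 0.60), Lpin2 by -0.053 (95% interval -0.42 to 0.32) and Lpin3 by -0.20 (95% interval -0.48 to 0.08). Lpin3 had the smallest unadjusted p of the 3, at 0.129.

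Of the other droplet coats, Cidec, which fuses droplets into larger ones, measured 9.64, 10.05 and 9.99 in mutants and 9.76, 10.02 and 9.77 in controls. The groups overlapped, and the difference was 0.041 (95% interval -0.30 to 0.39). The adipocyte perilipin Plin1 had the smallest unadjusted p of the group (0.181), with a difference of 0.20 (95% interval -0.12 to 0.53). Plin4 differed by -0.070 and Plin5, the perilipin of oxidative tissues, by 0.063, and Cidea was below background in both groups.

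Among genes of droplet formation and growth, Hsd17b11, a dehydrogenase of the 17-beta-hydroxysteroid family found on droplets, measured 10.49, 10.65 and 10.61 in mutants and 10.18, 10.15 and 10.35 in controls. Each mutant was above each control. The ratio of mutant to control was 1.29 (0.36 on the log2 scale, SE 0.10, unadjusted p 0.00994), with a limma adjusted p of 0.569 over all clusters and 0.290 over those with 1 symbol. The other 9 measured genes of this group had unadjusted p-values above 0.05.

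The lipases and their cofactors held the pair of differences farthest from 0 among the 44 genes, those of Aadac and Ces2a. Lipe (hormone-sensitive lipase) differed by -0.0018 (95% interval -0.24 to 0.23). Abhd5, the activator of PNPLA2, differed by 0.12 (95% interval -0.16 to 0.39), and its inhibitor G0s2 by -0.027 (95% interval -0.44 to 0.39) on the brighter cluster and by -0.23 (95% interval -0.46 to 0.01) on a dimmer one. The dimmer G0s2 cluster did not overlap between groups, at 5.44, 5.49 and 5.52 in mutants and 5.61, 5.83 and 5.69 in controls, with an unadjusted limma p of 0.0555 over all clusters and 0.0433 over those with 1 symbol, and an adjusted p of 0.712 and 0.539. On their brightest clusters, 3 other lipases had an unadjusted p under 0.05.

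Aadac, an esterase of the endoplasmic reticulum that is abundant in liver and intestine, measured 9.45, 9.19 and 8.87 in mutants and 10.08, 9.66 and 10.05 in controls. All mutants were below all controls, and the mutant mean was 1.69-fold lower. The difference of -0.76 (SE 0.18, unadjusted p 0.00467) had a limma adjusted p of 0.491 over all clusters and 0.165 over those with 1 symbol. The hepatocyte markers averaged 6.20, 5.91 and 5.64 in mutants, in the same order as Aadac, and 7.78, 6.73 and 7.88 in controls. Control 2 was the lowest control for both, while the highest was control 1 for Aadac and control 3 for the markers. All 12 of those markers were lower in the mutant mean and 5 of them were called in the fit over clusters with 1 gene symbol, with albumin (Alb) at 7.73, 7.05 and 6.44 in mutants and 10.30, 8.80 and 10.38 in controls. Of the 12, 5 were below background in mutants, and Apoh and Serpina1a were so in both groups, while Cps1, which enterocytes also make, was the nearest to 0 at -0.15. Hnf4a ran in the same order as Aadac in mutants too, at 9.49, 9.25 and 9.11, with controls at 10.74, 10.60 and 10.57. The parts of genotype and of the hepatocyte marker transcripts in the Aadac difference cannot be told apart here and were not tested.

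**Figure D3:**
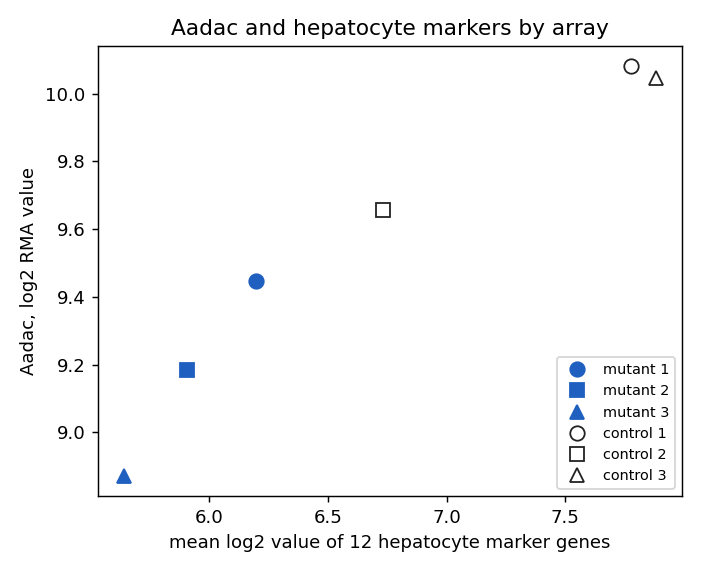
Aadac (y axis, log2 RMA value) against the mean log2 value of 12 hepatocyte marker genes (x axis), 1 point per array, with filled blue symbols for mutants and open black symbols for controls. Mutant 3 is lowest on both axes (8.87 and 5.64), control 2 (9.66 and 6.73) is the lowest control on both, and the plot was drawn after the values had been seen.

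Ces2a, a carboxylesterase of enterocytes, measured 10.99, 10.82 and 11.41 in mutants and 10.61, 10.37 and 10.67 in controls. The groups did not overlap, and the ratio of mutant to control was 1.44 (0.52 on the log2 scale, SE 0.17, unadjusted p 0.0200, limma adjusted p 0.633 over all clusters). Carboxylesterases are a family of related genes, and whether probes of this cluster also match other members was not examined. Ces2e, another member of that family, differed by 0.088 (95% interval -0.12 to 0.30). Pnpla3, a relative of PNPLA2, was below background in controls and close to it in mutants, and differed by 0.34 (unadjusted p 0.0412, limma adjusted p 0.683 over all clusters).

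**Figure D4:**
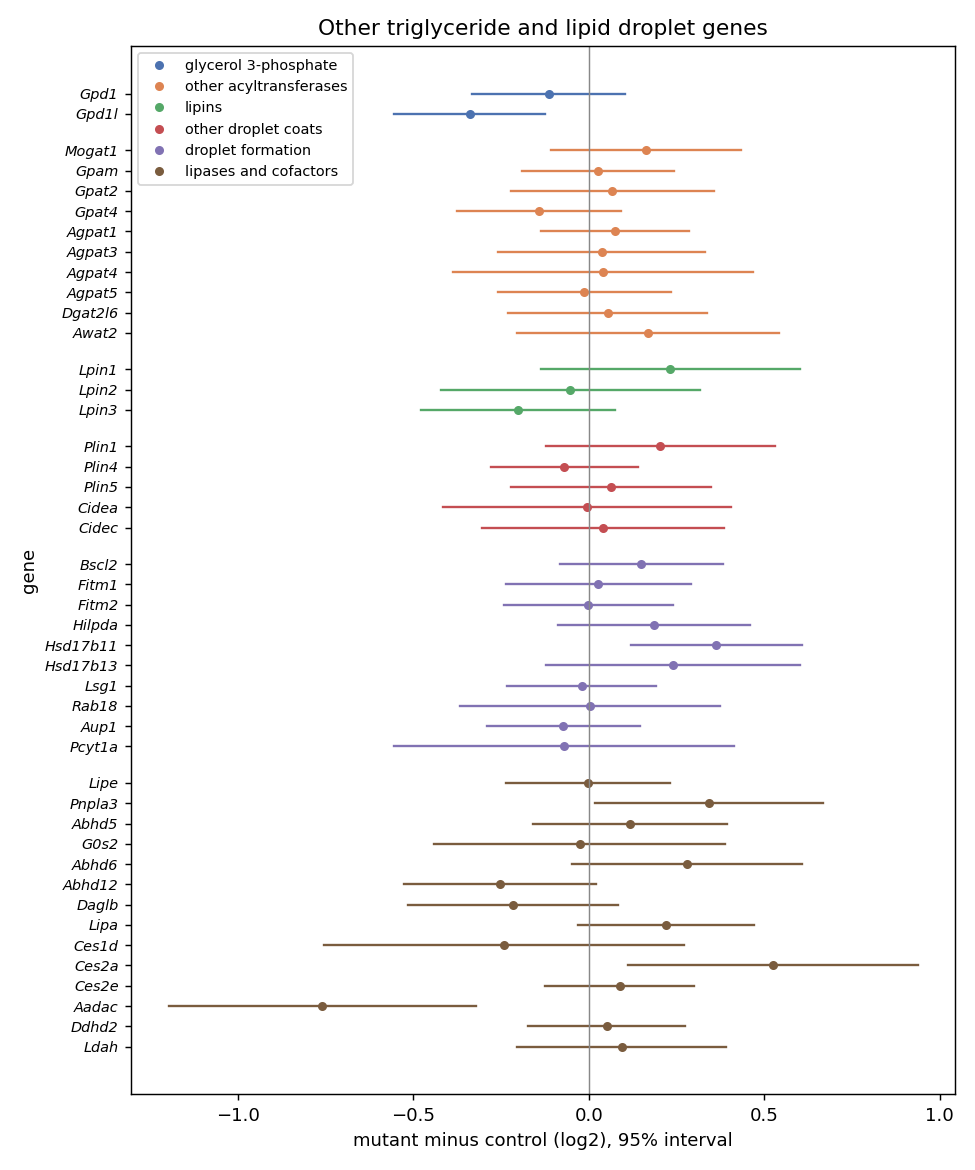
Mutant minus control differences on the log2 scale with 95% intervals (x axis) for the 44 other measured genes of triglyceride and lipid droplet metabolism (y axis), coloured by role. The intervals of Gpd1l and Aadac lie wholly below 0 and those of Hsd17b11, Pnpla3 and Ces2a wholly above it before any adjustment, and 0 of the 44 were called after it.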

How the data were processed

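Per the labels, the authors turned the array scans into log2 values with RMA, using the Transcriptome Analysis Console. This method corrects background, equalises the distribution of the arrays and summarises probes, so total RNA per cell is not kept. Cluster identifiers match the Mouse Gene 2.0 ST array and were followed, although the methods name another mouse array. Of 41345 clusters, 23521 carried 1 gene symbol.

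Groups came from the sample titles. Differences (mutant minus control) were fitted by limma 3.58.1 under R 4.3.3 over all clusters, and in a second fit over clusters with 1 symbol, two-sided, with Benjamini-Hochberg adjustment and a threshold of 0.1 as in the study. Errors are SD over 3 mice for means and SE for differences, and the number of arrays limits the precision. Ratios of members within an array had an exact permutation test, two-sided. The p-values rest on the spread between these mice. For limma, the SE and p of a gene also draw on a variance pooled over the clusters of the fit. They are therefore not a measure of that gene's own spread alone. The sources used here give no litter or batch.

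The members, pathway list, markers and tests were chosen with earlier results of these data known. Genes named are the members, Hnf4a, listed paralogs and partners, and the gene with the smallest unadjusted p of each pathway group. Other genes with p under 0.05 or without overlap, Ces2e, the paralogs below background and the markers were named after their values were seen. Figures were drawn with matplotlib 3.10.9 in Python 3.11.15. The fitting code was tested on simulated data.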

Additional observations from a re-analysis of the deposited data

How the results depend on the processing

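The count of members called and that of other pathway genes called by limma were 0 under every alternative run (for the members, also 0 at an unadjusted p under 0.05 with all arrays, where 5 of 44 pathway genes were). Counts over the whole array moved more: against 5 clusters called over all clusters and 111 over those with 1 gene symbol, a filter on dim clusters gave 34 and 208, an intensity trend with a robust prior 17 and 190, unmoderated statistics 0 and 0, and a threshold of 0.05 gave 0 and 30. Limiting the first fit to clusters with 1 symbol gave 111. Leaving out single arrays gave 0 to 16 over all clusters and 10 to 108 over those with 1 symbol. With the replicate number as a block the counts were 0 and 64. The deviations of samples sharing a number from their group means correlated at -0.108, -0.0065 and -0.051. Those of samples with different numbers correlated at -0.074 to 0.111. With 3 arrays per group such correlations cannot show whether a number stands for a shared litter or batch. The numbers were not used in the main fit.

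Signs of differences near 0 turned. Repeated quantile normalization gave 0.0079 for Mogat2, 0.0051 for Gpat3, 0.0068 for Plin3 and 0.036 for Pnpla2, and array weights gave 0.0087 for Dgat2. Leaving out single arrays gave -0.069 to 0.018 for Mogat2, -0.11 to 0.12 for Dgat2, -0.10 to 0.019 for Gpat3, -0.076 to 0.022 for Plin3, -0.062 to 0.031 for Pnpla2, -0.087 to 0.10 for the ratio Mogat2 over Gpat3 and -0.22 to 0.026 for Pnpla2 over Mgll. Dgat1, Agpat2, Plin2 and Mgll kept their sign in all 15 alternatives run for each, but not all of these could turn it. The cluster filters, the variance settings, the stricter threshold and the replicate block left each difference unchanged. Only repeated normalization, centring of arrays on their medians, array weights and leaving out arrays could turn a sign. Without single arrays the differences ran from -0.24 to -0.086 for Dgat1 and -0.058 to -0.0012 for Agpat2. They ran from 0.024 to 0.33 for Plin2 and 0.0054 to 0.24 for Mgll. The ratios Dgat1 over Dgat2 and Plin2 over Plin3 ran from -0.36 to -0.0046 and from 0.0089 to 0.31. The cause of these shifts was not tested.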
